A study of Mus musculus with 8 samples.

Results

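The genes described here are 10 transcripts that mark large peritoneal macrophages, the resident macrophages of the mouse peritoneal cavity: Gata6, Rarb, Timd4, Adgre1, Icam2, Selp, Cd9, F5, F10 and Prg4. They were chosen by name, and each was found through the RefSeq transcript of its array probe, among 20887 named genes and 37018 genes and transcripts in all. The brightest probe stood for a gene that had more than 1. All 10 genes passed the intensity filter, as did 36947 of the 37018 genes and transcripts. Peritoneal macrophages came from C57BL/6 mice of 2 genotypes. The KO mice were LysMCre-fur(fl/fl), in which a Cre recombinase expressed from the lysozyme M locus deletes a floxed Furin gene in myeloid cells, and the controls were WT littermates. FURIN is a protease that cleaves inactive precursor proteins into their mature forms. Adherent cells were left unstimulated or were given lipopolysaccharide (LPS, 1 μg/ml, from E. coli) for 1, 4 or 24 h. Each Agilent 2-colour array took RNA of both genotypes from 1 time. There were 2 biological replicates and therefore 2 arrays a time, 8 arrays and 16 channels in all. KO RNA carried Cy5 in every replicate 1 and Cy3 in every replicate 2. The age of these mice, and whether cells of several animals were pooled, are not given in the sources used here. No unstimulated sample was labelled with a later time, so hours in culture and hours of LPS cannot be told apart.

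Large peritoneal macrophages depend on GATA6, a zinc finger transcription factor whose expression is maintained by retinoic acid from the cells that line the cavity. They differ from the smaller, monocyte-derived macrophages of the same cavity by high surface levels of the products of Adgre1 and Icam2 and by the phosphatidylserine receptor TIM4 (the product of Timd4). They also make secreted proteins that are unusual for a macrophage, among them coagulation factors V and X and the lubricant proteoglycan 4. During inflammation of the cavity these cells clot, adhere and become hard to recover, a response known as the macrophage disappearance reaction. In cultured cells an array measures RNA per amount of RNA loaded, so fewer cells of a type and less RNA per cell cannot be told apart.

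Between 43.8% and 51.3% of gene spots lay well above background in each channel, and 9 of the 10 genes did so in all 16 channels. Rarb did in 8 of 16. None of the 192 spots of these genes over the 8 arrays was an outlier or saturated. All 9 measured genes of a general macrophage list (Csf1r, Itgam, Lyz2 and others) were above background in all 16 channels. So were all 8 genes of a B cell list and 6 of 7 of a mast cell list. Lyz2, whose locus carries the Cre, was lower in KO on 8 of 8 arrays, with log2 ratios from -1.85 to -0.74. Furin itself was lower in KO on 6 of 8 arrays, with log2 ratios from -0.85 to 0.33 and a mean of -0.44 (SE 0.06, limma adjusted p = 0.022), a call lost in 7 of 8 cases when 1 array was left out (limma adjusted p from 0.0441 to 0.0915 over the 8) and with the processed signals (limma adjusted p = 0.283). The 2 exceptions were both arrays of 4 h, with Furin ratios of 0.00 and 0.33, so Furin was not lower in the samples labelled KO at that time. Its level changed there by 1.19 in KO (limma adjusted p = 6.58e-06) and by 0.31 in WT (limma adjusted p = 0.0966) against unstimulated. Lyz2 had a mean log2 ratio of -1.09 at 4 h. Whether the Furin probe lies in the deleted part is not known here, so its values do not check the deletion. The paper itself reports that Furin mRNA was nearly absent from macrophages and neutrophils of KO mice.

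Most of these genes were lower after LPS, and the time at which they fell differed from gene to gene. In WT cells 1 gene of 10 (Gata6) was lower and 1 (F10) higher after 1 h, against 5.15% lower and 3.35% higher of the 36927 genes and transcripts tested. After 4 h, 7 were lower and 1 (F10) higher, against 19.2% lower and 15.5% higher. After 24 h, 8 were lower and none higher, against 16.8% lower and 13.5% higher. The median change of the 10 genes in WT cells was -0.89 at 4 h and -1.80 at 24 h on the log2 scale, beside medians over all features of -0.00 and -0.01. In KO cells 1 gene (Gata6) was lower after 1 h, where 4.45% of all features were lower and 3.08% higher. After 4 h 6 were lower and 1 higher, against 19.7% lower and 16.2% higher. After 24 h 8 were lower and none higher, against 15.9% lower and 12.8% higher, with a median of -2.27 for the 10 genes. With the replicate number as a block, Icam2 was also called lower at 1 h in both genotypes, where all features called in either direction went from 3139 to 4508 in WT and from 2782 to 4386 in KO. Selp was also called higher at 24 h in KO, where they went from 10571 to 12364. The 8 genes lower after 24 h were the same in both genotypes: Gata6, Rarb, Timd4, Icam2, Cd9, F5, F10 and Prg4. Calls are at an adjusted p below 0.05 in a separate-channel fit with limma (Benjamini-Hochberg adjustment over all features, 2 channels a group). The shares, here and below, are over all features tested, detected or not. Only 43.8% to 51.3% of gene spots lay well above background in a channel, whereas 9 of the 10 genes did in all 16 channels. A share among detected features could be higher and was not computed. The arrays of 0 and 1 h lay in one row of the slide and those of 4 and 24 h in the other, so slide row and time cannot be told apart for the changes from unstimulated to 4 or 24 h. The steps from 0 to 1 h and from 4 to 24 h each lay within 1 row.

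**Figure D1:**
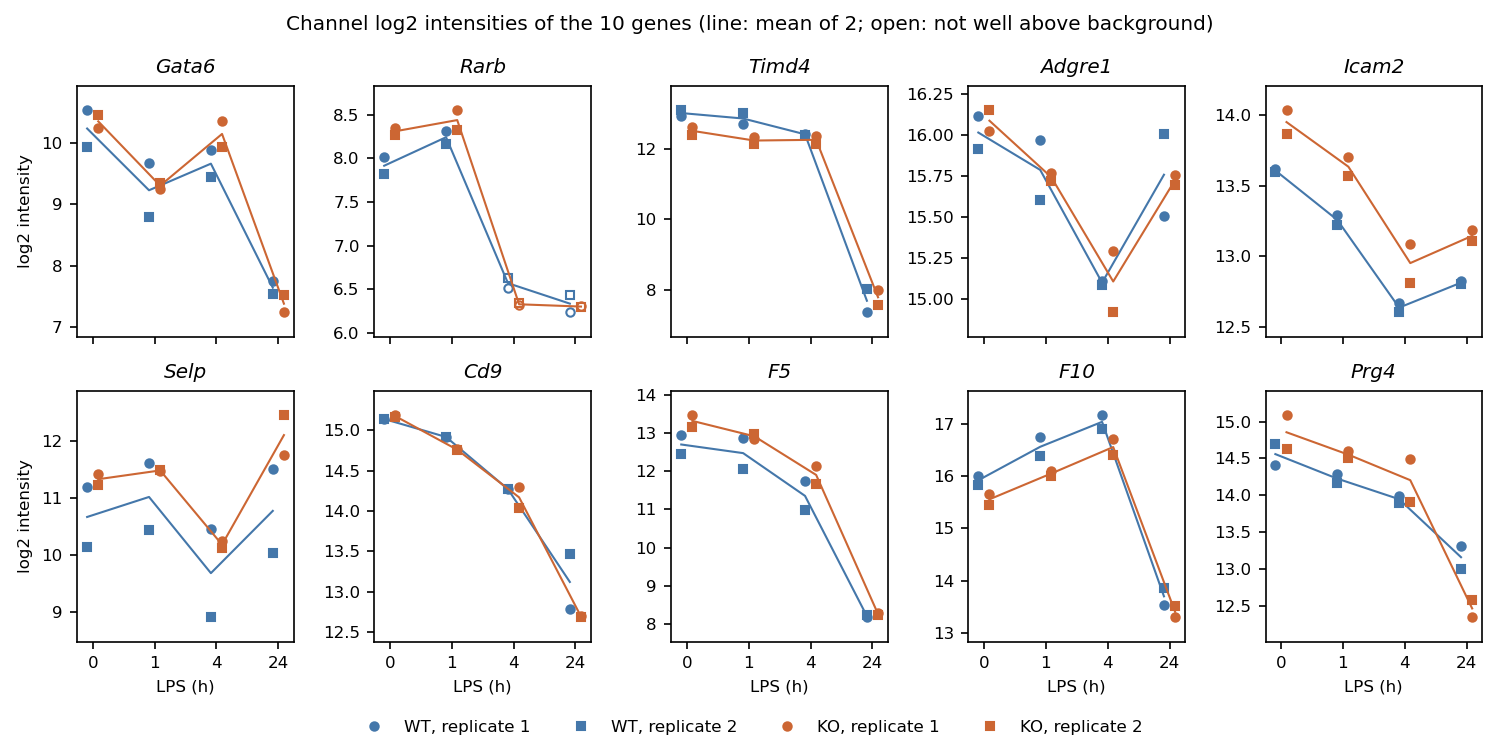
Log2 intensity (vertical axis) of each of the 10 genes in the 16 channels, by hours of LPS (horizontal axis), with WT in blue, KO in orange, circles for replicate 1, squares for replicate 2 and lines through the means of 2. Timd4, F5, F10, Gata6, Cd9 and Prg4 each had their own lowest values at 24 h in both genotypes, whereas Selp had its lowest at 4 h, and the open symbols of Rarb at 4 and 24 h were not well above background.

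Gata6, the transcription factor on which these cells depend, fell within the first hour. Its log2 intensity in WT cells was 10.53 and 9.93 in the 2 unstimulated channels, 9.66 and 8.79 after 1 h, 9.87 and 9.44 after 4 h, and 7.75 and 7.53 after 24 h. In KO cells it was 10.24 and 10.45 unstimulated, 9.25 and 9.35 after 1 h, 10.35 and 9.94 after 4 h, and 7.24 and 7.52 after 24 h. Thus both 1 h channels lay below both unstimulated ones in each genotype, the 4 h channels lay between 9.44 and 10.35, and the 24 h values were the lowest. The change at 1 h was -1.004 (SE 0.27, limma adjusted p = 0.0313) in WT and -1.05 (SE 0.27, limma adjusted p = 0.0282) in KO. At 4 h the change against unstimulated did not pass the threshold (-0.57 in WT, limma adjusted p = 0.124, and -0.20 in KO, limma adjusted p = 0.642). With the replicate number as a block it did in WT (limma adjusted p = 0.0134). The step from 1 to 4 h, a comparison added after the values were seen, was 0.84 in KO (SE 0.27, limma adjusted p = 0.0261) and 0.43 in WT (limma adjusted p = 0.284). At 24 h Gata6 was 6.02-fold lower in WT and 7.81-fold lower in KO, with log2 changes of -2.59 (limma adjusted p = 4.01e-06) and -2.97 (limma adjusted p = 1.19e-06). The calls at 1 h were less secure than those at 24 h. In WT the change at 1 h was -0.57 (limma adjusted p = 0.37) without LPS 1 h replicate 2 and -0.71 (limma adjusted p = 0.319) without unstimulated replicate 1, and without either array of 24 h it kept its size with an adjusted p of 0.0531. In KO it was -0.94 (limma adjusted p = 0.125) without unstimulated replicate 2, -1.15 (limma adjusted p = 0.0716) without unstimulated replicate 1 and -0.996 (limma adjusted p = 0.0614) without LPS 1 h replicate 1.

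Rarb encodes retinoic acid receptor beta, a ligand-dependent transcription factor and itself a classical target of retinoic acid. Its log2 intensity in WT cells was 8.01 and 7.82 unstimulated, 8.32 and 8.17 after 1 h, 6.51 and 6.63 after 4 h, and 6.24 and 6.44 after 24 h. In KO cells it was 8.35 and 8.27, then 8.55 and 8.33, then 6.32 and 6.34, and finally 6.31 and 6.29. All 8 channels of 0 and 1 h were well above background and none of the 8 channels of 4 and 24 h was, so the later values give only a bound. Rarb was at least 2.55-fold lower at 4 h and at least 2.73-fold lower at 24 h in WT, and at least 3.71-fold and 3.79-fold lower in KO. For these bounds the dim group took, on each array, the higher of its own signal and the lowest signal among probes well above background, after Aquantile scaling, and each group held 1 channel of each dye. The fall at 4 h passed the threshold in both genotypes (limma adjusted p = 3.01e-07 in WT and 7.52e-09 in KO). The changes at 1 h of 0.33 in WT and 0.13 in KO did not (limma adjusted p = 0.103 and 0.658). A second, dimmer probe of Rarb changed by -0.53 in WT and -0.58 in KO at 4 h. Even the brighter probe was not well above background then, so these values do not measure the size of the fall.

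RefSeq promoter windows (GRCm38.p6) were at hand for 6 of the 10 genes: Rarb, Timd4, Selp, Cd9, F5 and F10. The 250 bases before the annotated start are shown for Rarb, because it alone held a retinoic acid response element, and for Timd4 and F5, because they fell most. Capitals mark every motif match. The search covered both strands for the direct repeat bound by retinoic acid receptors (GGTCA or GTTCA, then 6 bases of any kind, then GGTCA or GTTCA), the GATA hexamers (AGATAA or AGATAG or else TGATAA or TGATAG), the AP-1 site TGANTCA, the PU.1 core GAGGAA, and the E-box CACGTG. None of these patterns contains another.
Rarb, chr14:16575477-16575726, minus strand: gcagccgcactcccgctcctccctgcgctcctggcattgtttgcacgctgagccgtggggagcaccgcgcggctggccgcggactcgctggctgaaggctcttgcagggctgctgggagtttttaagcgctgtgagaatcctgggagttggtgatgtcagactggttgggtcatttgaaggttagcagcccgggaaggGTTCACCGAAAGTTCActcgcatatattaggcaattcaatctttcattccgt
Timd4, chr11:46810549-46810798, plus strand: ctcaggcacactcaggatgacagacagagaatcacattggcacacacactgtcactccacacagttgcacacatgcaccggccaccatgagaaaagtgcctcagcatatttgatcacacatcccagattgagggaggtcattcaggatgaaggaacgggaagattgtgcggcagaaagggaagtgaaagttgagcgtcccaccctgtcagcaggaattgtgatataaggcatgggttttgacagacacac
F5, chr1:164151585-164151834, plus strand: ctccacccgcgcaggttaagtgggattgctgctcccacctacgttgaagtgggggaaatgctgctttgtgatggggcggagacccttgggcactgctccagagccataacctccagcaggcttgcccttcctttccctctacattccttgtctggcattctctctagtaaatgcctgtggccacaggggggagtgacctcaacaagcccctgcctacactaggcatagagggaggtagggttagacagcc
The direct repeat of Rarb lay from 52 to 37 bases before the start, and 0.21% of 32851 promoter windows of the same length held one. A GATA hexamer was in 0 of the 6 windows, whereas 26.5% of all windows held one. The AP-1 pattern was in the window of Selp and in 6.75% of all windows. GAGGAA and CACGTG were in none of the 6 windows, and in 23.3% and 6.02% of all windows. These matches describe letters only and do not show binding.

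Timd4 encodes TIM4, a receptor that tethers apoptotic cells, and had the largest fall of the 10 genes in WT cells at 24 h. Its log2 intensity in WT was 12.92 and 13.08 unstimulated, 12.68 and 13.01 after 1 h, 12.42 and 12.39 after 4 h, and 7.38 and 8.04 after 24 h. In KO it was 12.62 and 12.38, then 12.32 and 12.13, then 12.36 and 12.13, and finally 8.02 and 7.60. The channels of 0 to 4 h all lay above 12, and the drop came after, with no overlap between the 24 h channels and any earlier ones. At 24 h it was 39.3-fold lower in WT (log2 change -5.29, SE 0.21, limma adjusted p = 5.2e-10) and 25.9-fold lower in KO (log2 change -4.69, limma adjusted p = 1.71e-09). The change at 4 h was -0.60 in WT (limma adjusted p = 0.0384) and -0.25 in KO (limma adjusted p = 0.423). The WT call at 4 h did not hold without any 1 of the 4 arrays compared, with changes from -0.68 to -0.52 and limma adjusted p from 0.0821 to 0.194.

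Adgre1 encodes an adhesion receptor used as the standard surface marker of mouse macrophages, and it dipped at 4 h. Its log2 intensity ranged from 15.91 to 16.15 in the 4 unstimulated channels of both genotypes, from 14.92 to 15.29 at 4 h and from 15.51 to 16.005 at 24 h. The 4 h channels lay below all others and the 24 h channels of WT overlapped the unstimulated ones. The change at 4 h was -0.91 in WT and -0.98 in KO (SE 0.17 each, limma adjusted p = 0.000612 and 0.000339). At 24 h it was -0.26 and -0.36 (limma adjusted p = 0.327 and 0.147). The rise from 4 to 24 h, again a comparison added later, was 0.66 in WT and 0.62 in KO (limma adjusted p = 0.00869 and 0.0122). Its second probe moved alike, with -1.04 in WT and -1.07 in KO at 4 h.

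Icam2, Selp and Cd9 encode surface proteins of adhesion, and each had a course of its own. Icam2, a ligand of the integrin LFA-1, was at 13.62 and 13.60 in the unstimulated WT channels, 13.29 and 13.22 after 1 h, 12.67 and 12.60 after 4 h, and 12.82 and 12.80 after 24 h. KO values were 14.04 and 13.87, then 13.70 and 13.57, then 13.09 and 12.81, and finally 13.18 and 13.10. Both genotypes thus fell to 4 h and stayed low. The change at 4 h was -0.97 in WT and -1.002 in KO (SE 0.11 each, limma adjusted p = 4.41e-06 and 3.44e-06), while that at 24 h was -0.80 and -0.81, respectively (limma adjusted p = 4.32e-05 and 4.07e-05).

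Cd9 encodes a tetraspanin, a membrane organiser that associates with integrins, and fell steadily. In WT its log2 intensity was 15.14 in both unstimulated channels, 14.92 in both after 1 h, 14.27 in both after 4 h, and 12.78 and 13.46 after 24 h. In KO it was 15.19 and 15.16, then 14.77 and 14.75, then 14.30 and 14.04, and finally 12.70 and 12.68. At 24 h Cd9 was 4.06-fold lower in WT (log2 change -2.02, SE 0.16, limma adjusted p = 4.22e-07) and 5.60-fold lower in KO (log2 change -2.48, limma adjusted p = 6.1e-08). The falls at 4 h, -0.87 and -1.01, also passed (limma adjusted p = 0.000678 and 0.000195).

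Selp encodes P-selectin, which binds leukocyte ligands and is best known from platelets and endothelium, and its replicates differed more than those of any other gene here. In WT replicate 1 its log2 intensity was 11.18, 11.60, 10.45 and 11.51 at 0, 1, 4 and 24 h, and in WT replicate 2 it was 10.14, 10.42, 8.90 and 10.02. In KO replicate 1 it was 11.42, 11.47, 10.23 and 11.75, and in KO replicate 2 it was 11.23, 11.48, 10.12 and 12.44. WT replicate 2 was lower than the other 3 series at every time, and all 4 series had their lowest value at 4 h. No change of Selp against unstimulated passed the threshold in the fit without a block (-0.99 at 4 h in WT with limma adjusted p = 0.212, and -1.15 in KO with limma adjusted p = 0.135). With the replicate number as a block, the fall at 4 h passed in both genotypes (limma adjusted p = 0.000691 in WT and 0.000189 in KO), as did the rise of 0.77 at 24 h in KO (limma adjusted p = 0.00512). The probe was spotted 10 times on each array, and the SD of its log2 Cy5 to Cy3 ratio over the spots was 0.039 to 0.061, which measures only the repeatability of spots within a hybridisation. Of the platelet and megakaryocyte markers, Pf4 and Ppbp were among those above background in all 16 channels, Gp1bb was in 15, Gp6 in 8, and Gp5 and Gp9 in 0. Of 8 endothelial markers, Kdr and Egfl7 were above background in all 16 channels, Vwf in 15, and Cdh5, Tek, Emcn and Tie1 in 0. The part of these cells in the Selp signal was not tested. The mean log2 intensity of the platelet list was 7.83 to 7.91 in the unstimulated WT channels and 7.88 to 7.95 in the KO ones, and that of the endothelial list 7.32 to 7.35 and 7.25 to 7.42.

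**Figure D2:**
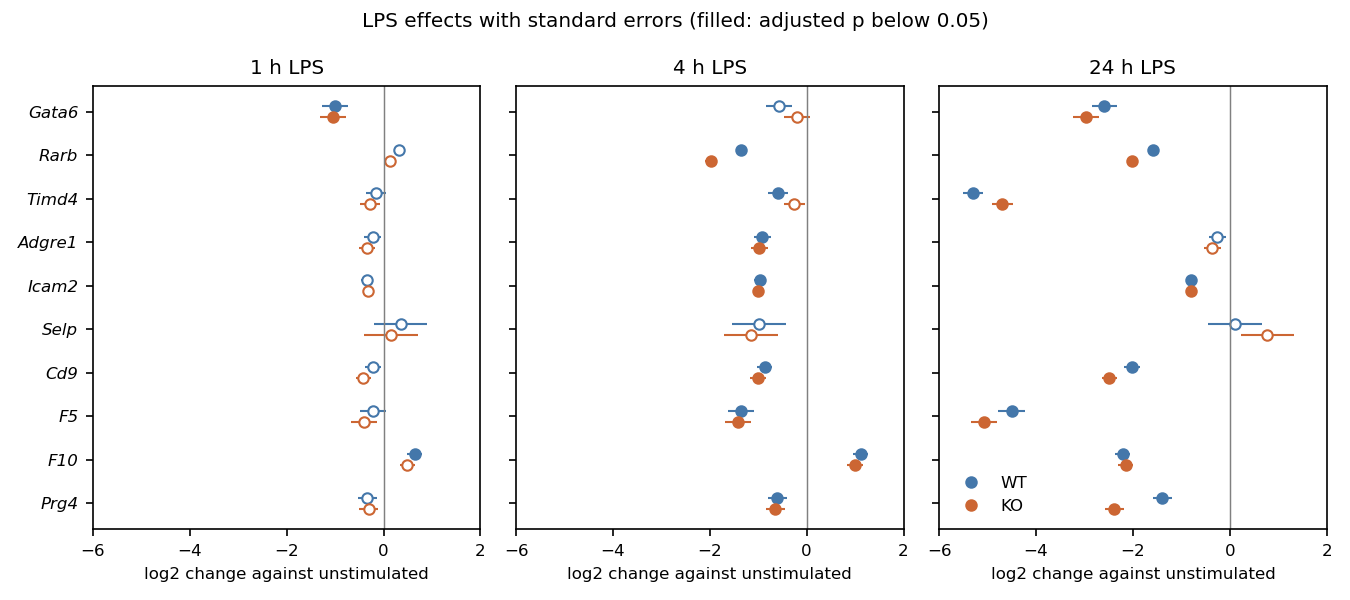
Log2 change against unstimulated (horizontal axis) after 1, 4 and 24 h of LPS for each gene (rows), WT in blue and KO in orange, with bars of 1 standard error and filled symbols where the limma adjusted p was below 0.05. At 24 h the changes of Timd4 and F5 were between -4.51 and -5.29 in all 4 cases, and those of Selp and Adgre1 did not pass.

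F5 and F10 encode coagulation factors V and X, the cofactor and the protease of the complex that turns prothrombin into thrombin. F5 in WT was at 12.95 and 12.46 unstimulated, 12.89 and 12.07 after 1 h, 11.74 and 10.97 after 4 h, and 8.17 and 8.23 after 24 h. KO values were 13.47 and 13.17, then 12.86 and 12.98, then 12.13 and 11.68, and finally 8.27 and 8.23. The 4 h channels lay below the unstimulated ones and the 24 h channels far below both. F5 was 2.55-fold lower at 4 h in WT and 2.67-fold lower in KO (limma adjusted p = 0.00106 and 0.000694). At 24 h it was 22.7-fold lower in WT (log2 change -4.51, SE 0.27, limma adjusted p = 2.13e-08) and 33.6-fold lower in KO (log2 change -5.07, limma adjusted p = 7.71e-09). Its second probe had log2 changes at 24 h of -3.58 in WT and -3.85 in KO.

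In the fit without a block, F10 was the only one of the 10 genes called higher than unstimulated after LPS, and this rested on 1 of its 2 probes. Its brighter probe was at 16.01 and 15.83 in unstimulated WT channels, 16.74 and 16.38 after 1 h, 17.16 and 16.91 after 4 h, and 13.54 and 13.87 after 24 h. KO values were 15.65 and 15.46, then 16.09 and 16.01, then 16.71 and 16.39, and finally 13.30 and 13.51. Here the 4 h channels lay above, and the 24 h channels below, all unstimulated channels of the same genotype. The rise at 4 h was 2.17-fold in WT and 2.00-fold in KO (limma adjusted p = 5.2e-05 and 0.000143). That at 1 h was 0.64 in WT (limma adjusted p = 0.0203) and 0.49 in KO (limma adjusted p = 0.0824). In WT the change at 1 h was 0.46 (limma adjusted p = 0.229) without LPS 1 h replicate 1, 0.55 (limma adjusted p = 0.174) without unstimulated replicate 2 and 0.73 (limma adjusted p = 0.0662) without unstimulated replicate 1. At 24 h F10 was 4.64-fold lower in WT and 4.43-fold lower in KO (limma adjusted p = 1.14e-07 and 1.64e-07). The dimmer probe, assigned to another transcript of the gene, showed no rise. Its changes after 1, 4 and 24 h were -0.24, -0.99 and -2.20 in WT, and -0.24, -1.02 and -2.18 in KO. With the mean over both probes the change at 4 h was 0.06 in WT and -0.01 in KO (limma adjusted p = 0.82 and 0.968). The probes therefore differed in direction at 1 and 4 h and gave the same fall at 24 h.

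**Figure D3:**
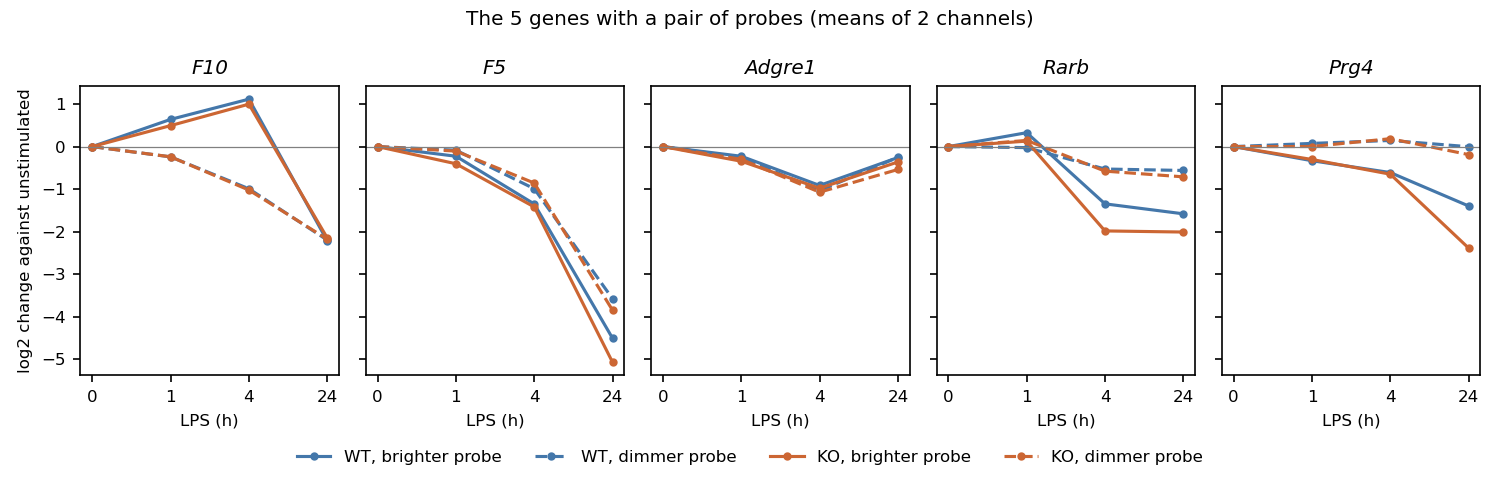
Log2 change against unstimulated (vertical axis) by hours of LPS for the 5 genes with a pair of probes, each point the mean of 2 channels, with the brighter probe as a solid and the dimmer as a dashed line. The F10 probes parted at 4 h (1.11 against -0.99 in WT) and met at 24 h (-2.21 against -2.20), and both Adgre1 probes dipped at 4 h.

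Prg4 encodes proteoglycan 4, a secreted lubricant of joints and serous surfaces, and fell mainly between 4 and 24 h. In WT its log2 intensity was 14.42 and 14.70 unstimulated, 14.28 and 14.17 after 1 h, 14.00 and 13.90 after 4 h, and 13.32 and 13.004 after 24 h. KO values were 15.09 and 14.62, then 14.59 and 14.51, then 14.50 and 13.91, and finally 12.35 and 12.59. The 24 h channels lay below all others of the genotype, and those of KO lay below those of WT. Prg4 was 2.63-fold lower at 24 h in WT (log2 change -1.40, SE 0.20, limma adjusted p = 7.65e-05) and 5.23-fold lower in KO (log2 change -2.39, limma adjusted p = 5.44e-07). The difference between these responses, -0.99 (SE 0.28), did not pass (limma adjusted p = 0.989). The falls at 4 h, -0.61 in WT and -0.65 in KO (limma adjusted p = 0.0266 and 0.0185), did not hold without LPS 4 h replicate 2 (-0.56 and -0.36, limma adjusted p = 0.0698 and 0.249). They also failed in WT without unstimulated replicate 2 (-0.47, limma adjusted p = 0.146) and in KO without unstimulated replicate 1 (-0.42, limma adjusted p = 0.191). A dimmer second probe of Prg4 changed by no more than 0.19 in size at any time, and the mean over both probes was not called at 4 h (-0.23 in each genotype, limma adjusted p = 0.181).

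The steps between LPS times were compared after the values had been seen. From 1 to 4 h, 5 genes fell and 1 (F10) rose in WT, against 15.6% of all features lower and 14.0% higher. In KO 5 fell and 2 (F10 and Gata6) rose, against 16.8% lower and 15.0% higher. From 4 to 24 h, 6 fell and 1 (Adgre1) rose in WT, against 14.6% lower and 15.1% higher. With the block Selp was called higher in WT too, where all features called in either direction went from 10972 to 12860. In KO 6 fell and 2 (Adgre1 and Selp) rose, against 15.1% lower and 15.7% higher. Gata6, Timd4, Cd9, F5, F10 and Prg4 fell in this last step in both genotypes. Icam2 changed by 0.18 in WT and 0.19 in KO (limma adjusted p = 0.265 and 0.212).

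No single time gave a called difference between KO and WT macrophages for any of the 10 genes in the fit without a block. Of 36947 features, limma on the KO over WT ratios called 0% unstimulated, 0% after 1 h, 0.00812% after 4 h and 0.0244% after 24 h. At an unadjusted p below 0.05 there were 4, 4, 4 and 5 of the 10, the count at 4 h including Rarb, which was not well above background there (2126, 2018, 1594 and 1263 of all features). The Student's t-test of the methods gave 0, 3, 0 and 1 at that unadjusted threshold (1707, 1754, 1133 and 1516 of all features) and none after adjustment. With the replicate number as a block, F10 was called at 1 h (-0.51, limma adjusted p = 0.0461) and Selp at 24 h (1.33, limma adjusted p = 0.00644), where this fit called 213 and 216 of all 36947 features. For the difference between the LPS responses of KO and WT, 0 of 10 genes were called at 1, 4 and 24 h, where 0% of all features were called. At an unadjusted p below 0.05 these were 0, 1 (Rarb) and 2 genes (Prg4 and Rarb), of which Rarb has no measured difference, because its channels of 4 and 24 h were not well above background. Over all features these were 516, 1073 and 1230. The replicate block called none of the 10 for this difference either.

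Over all 8 arrays, Icam2 was higher and F10 lower in KO, the 2 genes of 10 called for the mean ratio, where 0.563% of all features were called. The log2 ratio of KO to WT for Icam2 was 0.42 and 0.27 unstimulated, 0.41 and 0.35 after 1 h, 0.42 and 0.21 after 4 h, and 0.36 and 0.31 after 24 h. It was above 0 on 8 of 8 arrays with a mean of 0.34 (SE 0.05, limma adjusted p = 0.0265), 1.27-fold. For F10 the ratio was -0.35 and -0.37 unstimulated, -0.65 and -0.37 after 1 h, -0.45 and -0.51 after 4 h, and -0.24 and -0.35 after 24 h. It was below 0 on 8 of 8 arrays with a mean of -0.41 (SE 0.05, limma adjusted p = 0.0199), 0.752-fold. For both genes the ratios were of the same sign in both dye orientations. The dimmer F10 probe had a mean ratio of -0.07 and was lower in KO on 5 of 8 arrays, and the mean over both probes gave -0.24 (limma adjusted p = 0.127). Icam2 stayed between 0.32 and 0.37 without any 1 array, but with limma adjusted p from 0.0646 to 0.127. F10 stayed between -0.45 and -0.38, with limma adjusted p from 0.0381 to 0.0978, and was no longer called without either unstimulated array, either array of 4 h, LPS 1 h replicate 1 or LPS 24 h replicate 2.

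With the replicate number as a block the mean ratio was called for 5 of the 10 genes, where 6.01% of all features were called. Mast cell markers moved with this fit: 0 of 7 were called without the block and 5 of 7 with it (Kit, Cpa3, Cma1, Fcer1a and Tpsb2), all higher in KO, and the median log2 ratio of the list was 0.47. The part of mast cells in the ratios of the 10 genes was not tested. The 3 added genes were F5 (0.42, limma adjusted p = 0.00688), Selp (0.74, limma adjusted p = 0.000844) and Timd4 (-0.30, limma adjusted p = 0.0224). Without the block their adjusted p was 0.118, 0.318 and 0.397. The p-values of the block measure the spread over times within a replicate number. They do not measure how the KO over WT ratio varies between the 2 pairs of cell preparations. F5 was higher in KO on 7 of 8 arrays, with mean ratios of 0.25 in replicate 1 and 0.58 in replicate 2. Timd4 was lower in KO on 7 of 8 arrays, with means of -0.02 and -0.57. For Selp the mean was 0.03 in replicate 1, where single ratios ran from -0.22 to 0.24, and 1.45 in replicate 2, where they ran from 1.06 to 2.42. Gata6 was also split, with -0.18 in replicate 1 and 0.39 in replicate 2, and higher in KO on 4 of 8 arrays (mean 0.10, limma adjusted p = 0.897). Because each replicate had 1 dye orientation, the 2 pairs of cell preparations and a dye effect of the probe cannot be told apart. Adgre1 (0.00), Prg4 (0.05) and Cd9 (-0.16) had mean ratios that did not pass in either fit. The mean of Rarb (0.08) did not pass either, but it includes 4 arrays not well above background. On the 4 arrays of 0 and 1 h its ratio was 0.34, 0.45, 0.23 and 0.16, with means of 0.39 unstimulated (limma adjusted p = 0.336) and 0.20 at 1 h (limma adjusted p = 0.959).

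**Figure D4:**
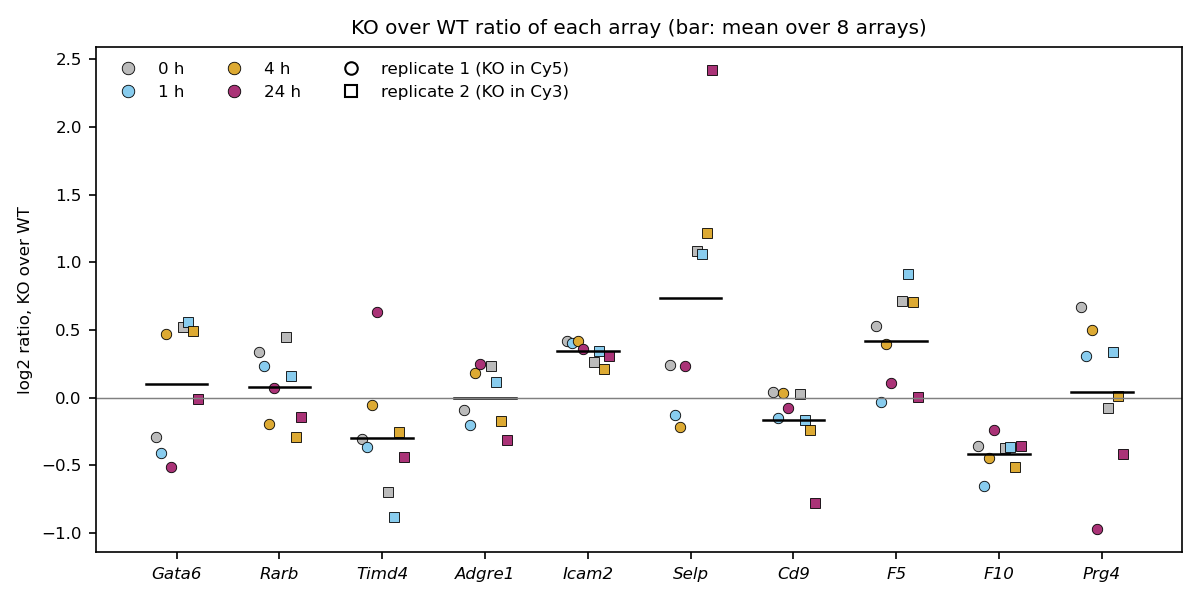
Log2 ratio of KO over WT (vertical axis) on each of the 8 arrays for every gene, with colours for hours of LPS, circles for replicate 1 (KO in Cy5), squares for replicate 2 (KO in Cy3) and a bar for the mean of 8. All Icam2 ratios lay between 0.21 and 0.42 and all F10 ratios between -0.65 and -0.24, whereas Selp was above 1 in replicate 2 only. The Rarb points at 4 and 24 h come from channels not well above background.

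Other genes of large peritoneal macrophages fell too. Of a list of 26, none of them among the 10, 20 were lower and 2 higher after 24 h of LPS in WT, with a median of -1.71, against 16.8% lower and 13.5% higher of all features. In KO 19 were lower and 1 higher, with a median of -2.29, against 15.9% lower and 12.8% higher. The largest falls in WT were those of Vsig4, a complement receptor (-8.04, SE 0.28, limma adjusted p = 1.75e-10), Alox15, a lipoxygenase (-6.79, SE 0.33, limma adjusted p = 2.85e-09), and Cd5l, a secreted inhibitor of apoptosis (-5.11, SE 0.13, limma adjusted p = 1.23e-11). The rises were those of Serpinb2, an inhibitor of plasminogen activators (2.33, SE 0.16, limma adjusted p = 6.42e-08), and Thbs1, thrombospondin 1 (1.10, SE 0.28, limma adjusted p = 0.00801). That of Thbs1 was not called without unstimulated replicate 2 (1.07, limma adjusted p = 0.06) or without LPS 24 h replicate 2 (0.86, limma adjusted p = 0.106). The list was chosen with earlier results of these data known, and the paper names Serpinb2 as raised in resting KO macrophages. The counts of this list are therefore no independent test of a KO difference. For the mean ratio of KO to WT 4 of the 26 were called, against 0.563% of all features, and 12 with the replicate block (9 higher and 3 lower in KO), against 6.01%. The 4 had a mean above 0: Apoc1, an apolipoprotein (0.92, SE 0.12, limma adjusted p = 0.0262), Cd5l (0.76, SE 0.07, limma adjusted p = 0.00731), Serpinb2 (0.59, SE 0.08, limma adjusted p = 0.0265) and Thbs1 (0.69, SE 0.11, limma adjusted p = 0.0452). Apoc1 and Cd5l were higher in KO on 8 of 8 arrays, Thbs1 on 7 and Serpinb2 on 6. The mean of Serpinb2 came mostly from the unstimulated arrays, with log2 ratios of 1.69 unstimulated and 0.23, 0.43 and -0.01 after 1, 4 and 24 h. Those of Thbs1 were 0.77 unstimulated and 0.29, 1.26 and 0.44 after LPS. Leaving out 1 array at a time ended the call in 6 of 8 cases for Apoc1, 2 for Cd5l, 6 for Serpinb2 and 7 for Thbs1.

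Other lists also held genes lower at 24 h, where 16.8% of all features were lower and 13.5% higher in WT, and 15.9% and 12.8% in KO. Of 9 measured genes of the general macrophage list, 6 were lower and 2 higher in each genotype at 24 h, with medians of -2.03 in WT and -2.26 in KO. Of 17 measured markers of small peritoneal macrophages, 11 were lower and 1 higher in WT and 12 and 1 in KO, with medians of -0.88 and -0.98. Of 7 mast cell markers, 5 were lower at 24 h in each genotype. The mean log2 intensity of that list was 9.56 to 9.88 in unstimulated WT channels and 7.90 to 8.47 at 24 h, and 9.76 to 10.24 and 8.73 to 8.75 in KO. Of 8 B cell markers 2 were lower in each genotype, a share near that of all features, and the mean of the list went from 11.11 to 11.53 unstimulated to 10.98 to 11.09 at 24 h in WT. The general macrophage, small peritoneal macrophage and B cell lists also held genes lower at 4 h in both genotypes, which are not counted here. The part of the cells of these lists in the changes of the 10 genes was not tested.

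**Figure D5:**
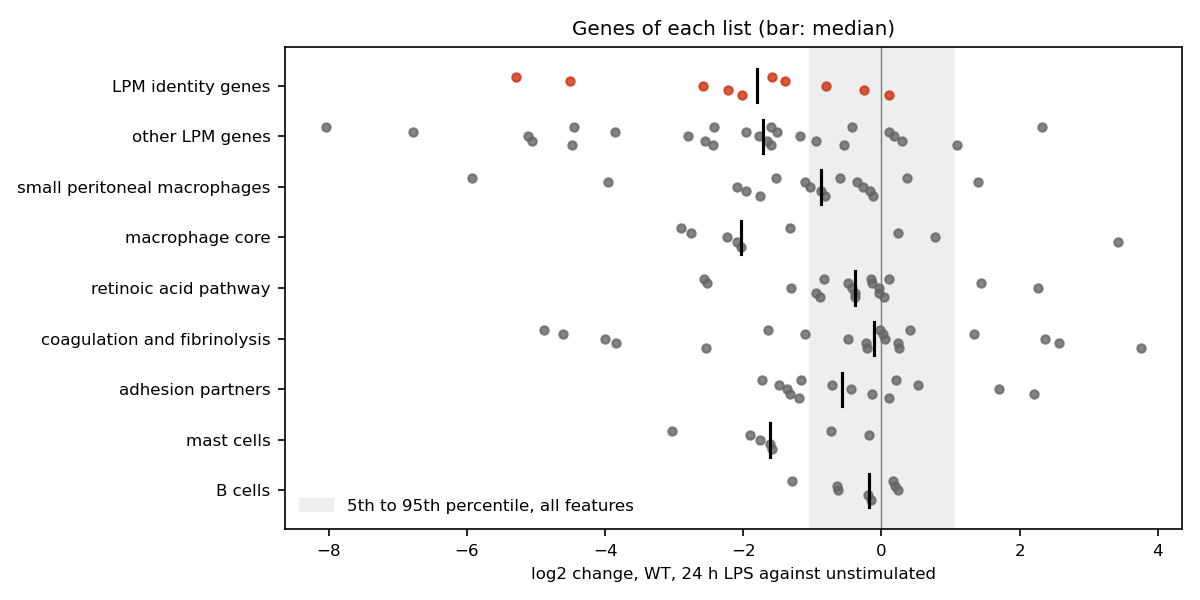
Log2 change after 24 h of LPS in WT (horizontal axis) for the genes of each list (1 point a gene, bar at the median), with the 10 genes in red and the range from the 5th to the 95th percentile of all features, -1.03 to 1.04, in grey. The median was -1.80 for the 10 genes, -1.71 for the other large peritoneal macrophage genes, -2.03 for the general macrophage list and -1.61 for the mast cell list, and the grey range describes single features, not medians.

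The pathways around the 10 genes held called genes in both directions, some at shares near those of all features (at 24 h 13.5% higher and 16.8% lower in WT, at 4 h 15.5% and 19.2%). Of 18 genes of retinoic acid synthesis, transport and response, 2 were higher and 9 lower after 24 h in WT and 2 and 8 in KO, with medians of -0.38 and -0.36. At 4 h 4 were higher and 5 lower in each genotype, and none was called for the mean ratio of KO to WT, or 3 (Aldh1a1, Cyp26b1 and Rarg) with the replicate block. Of 20 other genes of coagulation and fibrinolysis, 5 were higher and 9 lower at 4 h in each genotype. After 24 h 4 were higher and 8 lower in WT, with changes from -4.88 to 3.76, and 3 and 8 in KO. Of 14 adhesion partners of the surface members (integrins, selectins, their ligands and tetraspanins), 3 were higher and 7 lower after 24 h in each genotype. For the mean ratio of KO to WT, 1 of 20 coagulation genes, 2 of 17 small peritoneal macrophage markers and 2 of 9 general macrophage genes (Lyz2 among them) were called, against 0.563% of all features. With the replicate number as a block there were 4 in each of these lists, against 6.01%. The genes called without the block are named after their values were seen. F7, coagulation factor VII (-0.50, SE 0.08, limma adjusted p = 0.0452), Csf1r, the receptor of macrophage growth factor (-0.41, SE 0.05, limma adjusted p = 0.0183), Itgax (-0.38, SE 0.05, limma adjusted p = 0.0245) and Retnla (-0.41, SE 0.06, limma adjusted p = 0.0412) were lower in KO, each on 8 of 8 arrays. Leaving out 1 array at a time ended the call in 8 of 8 cases for Itgax and for Retnla, 7 for F7 and 5 for Csf1r.

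The course of Gata6 over the 16 channels was close to those of Chmp2b (Pearson r = 0.97), Mapkapk3 (0.967), Cln3 (0.958) and Stard8 (0.956), among 11011 named genes above background in every channel. Of the 10 genes, F5 (0.902), Timd4 (0.896), Prg4 (0.884), Cd9 (0.849) and F10 (0.813) correlated with Gata6. Their ranks among the genes compared were 68, 87, 120, 243 and 399. Icam2 (0.415) correlated less, and Adgre1 (-0.018) and Selp (-0.291) did not. F10 did not follow Gata6 at 1 h. There the brighter F10 probe changed by 0.64 in WT and 0.49 in KO, and Gata6 by -1.004 and -1.05. No value is given for Rarb, which was not well above background in 8 of the 16 channels. These correlations describe the channels. Channels of 1 array share a hybridisation, and the drop at 24 h weighs on all of them.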

How the data were processed

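The raw median intensities of 62976 spots a channel, as the authors deposited them from Agilent Feature Extraction 10.7.3, were corrected for background with normexp (offset 50), normalised by loess within and by quantiles between arrays, and averaged over spots of a probe in limma 3.58.1 (R 4.3.3). Control spots and spots that the deposited flags mark as outliers were left out, and the well-above-background flags (other quality columns, per the file headers) served for detection. The deposited log2 ratios of Cy5 to Cy3 are the authors' normalised values and served as an alternative. Features with a mean log2 intensity below 6 were dropped. KO over WT ratios were fitted with lmFit and eBayes (4 residual degrees of freedom), and LPS effects with lmscFit (within-spot correlation 0.116), with Benjamini-Hochberg adjustment over all features.

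The 10 genes and all lists were chosen with earlier results of these data known. Their counts beside the shares of all features are therefore no independent test. Times follow the sample titles, because the growth protocol names 4 h for every sample. Of the lists, the text names all 10 genes, and by rule, of the other large peritoneal macrophage genes, up to 3 with the largest rise and 3 with the largest fall in WT at 24 h and those called for the mean ratio, and genes most like Gata6. Genes of other lists were named after their values were seen. Some genes that the rules for naming would give are not reported here. Same-numbered arrays deviated together: the replicate difference of the KO over WT ratio correlated between times with r from 0.475 to 0.679 (6 pairs of times). A dye effect of the probes would give this too, since each number has 1 dye orientation, so the block removes whatever same-numbered arrays share, whether from the preparations or the dyes. The number of arrays limits the precision. Both fits were tested on simulated data with known changes, the ratio fit for KO against WT and the separate-channel fit for LPS effects. The alternatives were the replicate block, other background corrections, normalisations, filters and probe rules, the authors' table, the t-test of the methods, ignoring the array, and leaving out each array.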

Additional observations from a re-analysis of the deposited data

Results flagged for a closer look

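The log2 ratio of KO to WT for Cd9 was -0.78 in LPS 24 h replicate 2, farther from the other 7 arrays, the nearest of which was at -0.23, than they were from each other. In that array the WT channel was at 13.46, against 12.78 in replicate 1, and the KO channels were at 12.68 and 12.70. It was the only gene of 10 tested in this way with such an array, and chance gives about 1 in 20.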

How the results depend on the processing

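The falls at 24 h held for 8 of 10 genes in both genotypes whichever array was left out. The mean KO over WT ratio, called for 2 genes, was called for 0 with the processed signals, 1 each with Aquantile scaling, the mean over probes and the authors' value table, 5 with the replicate block and 0 to 1 without 1 array. KO against WT at 1 h and at 24 h had 1 gene each with the replicate block, in place of 0. The LPS effect at 1 h was called for 0 genes in WT and 0 in KO with the processed signals, for 2 in KO with the replicate block, and for 0 to 3 in WT and 0 to 2 in KO without 1 array. The step from 1 to 4 h in KO was called for 4 genes with the processed signals and for 4 to 7 without 1 array. The cause was not tested. The rise of F10 at 4 h in KO reversed to -0.012 with the mean over its probes, which holds a probe that fell. By direction, the replicate block also moved the genes lower at 1 h in WT from 1 to 2, those higher from 4 to 24 h in WT from 1 to 2, and those higher at 24 h in KO from 0 to 1, and it left the other counts of LPS effects within 1.5 times their value. Over all features the replicate block called 2219 in place of 208 for the mean ratio, 393, 213, 210 and 216 in place of 0, 0, 3 and 9 at 0, 1, 4 and 24 h, 0, 13 and 78 in place of 0 for the response differences at 1, 4 and 24 h, and 4386 in place of 2782 for LPS at 1 h in KO. With 2 arrays a time, single-time KO over WT calls were few among all features (0 to 9 of 36947), and signal near background limits Rarb.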

Other observations

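The remaining cell type lists gave small counts. At 24 h in WT, 2 of 8 mesothelial markers were lower, 2 of 7 fibroblast markers higher, and 1 of 9 platelet markers each higher and lower. Of 8 endothelial markers 2 were higher and 2 lower, of 8 T and NK cell markers 1 and 2, and of 6 eosinophil markers 1 and 1. Of 7 neutrophil markers 2 were higher and 1 lower, and of 6 dendritic cell markers 1 and 3. Of all features, 13.5% were higher and 16.8% lower. These lists are too small to be set closely against those shares. The dendritic cell list, with 3 of 6 lower, lay farthest above them. None of these lists had a gene called for the mean ratio of KO to WT without the replicate block. With it, Cd3d and Cd3g of the T and NK cell list, Ccr7 of the dendritic cell list (all higher in KO) and Camp of the neutrophil list (lower) were called, where 6.01% of all features were.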
